A study of Hydra vulgaris with 36 samples.

Results

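Described here are 96 genes of the freshwater polyp Hydra vulgaris that were near absent from mock tentacles and present in ectopic tentacles, out of 22608 genes in the count table. They were chosen on their levels in CPM, the count of a gene scaled to a library total of 1 M (mega) counts, averaged by group. A member had a mean under 1 CPM in each of 3 mock groups, under 1.5 CPM in original tentacles after Zic4 RNAi or Sp5 RNAi, and at least 5 CPM in ectopic tentacles after Sp5 RNAi and after Zic4/Sp5 RNAi. The 2 identifiers that the rule leaves out would not have met these limits. Every level in those groups is therefore a description and carries no test. The rule did not use the original tentacles of Zic4/Sp5 RNAi animals, where several libraries also held the members, so the genes were not confined to ectopic tentacles.

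The libraries come from wild-type animals of strain Hm_105 treated with small interfering RNA (siRNA, RNAi), which lowers the transcript of a chosen gene. Each treatment took 20 to 30 animals, which were electroporated 3 times with siRNA at 1.35 micromolar; tentacle tissue was collected 7 days later and pooled. Whole tentacles gave 11 libraries, namely ectopic tentacles of Zic4/Sp5 RNAi animals (n = 4), their original tentacles (n = 4) and original tentacles of mock animals (n = 3). The other 25 libraries were ectopic tentacles of Sp5 RNAi animals (n = 3), distal and proximal parts of original tentacles after Sp5 RNAi (n = 3 each) or Zic4 RNAi (n = 4 each), and the same parts in mock animals (n = 4 each). All groups share this genotype, siRNA concentration, number of electroporations and collection day, and the mock groups are labelled mock RNAi. Handling differed in that some original tentacles were divided into parts, and the whole-tentacle libraries and the other 25 have separate mock groups. An original tentacle sits at its normal place below the mouth, and an ectopic one at another position.

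Zic4 and Sp5 are zinc finger transcription factors, and in Hydra Sp5 is known as a repressor of head formation. The skin of a Hydra tentacle is made of battery cells, epithelial cells that each hold a set of stinging cells, the nematocytes. Nematocytes form in the body column from clusters of precursors, the nematoblasts, and reach the tentacle when nearly mature, while gland cells lie in the inner layer of the body column and head and are largely missing from tentacles.

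Of the 96 members, 73 (76.0%) matched a gene of the RefSeq table, against 9547 (42.2%) of the whole table. Only 2 had a name of their own, nb035 and kazal4. The other 71 matched genes had a locus symbol without a description, so no role is given for them, and the 23 unmatched genes are called by their identifiers. By RefSeq's classes 67 members were protein-coding and 4 were long non-coding RNAs.

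Library totals ran from 2.04 to 13.28 M counts, with 8.57 to 12.77 M for Zic4/Sp5 RNAi ectopic, 7.31 to 13.28 M for Zic4/Sp5 RNAi original, 6.33 to 7.70 M for Sp5 RNAi ectopic and 10.65 to 11.73 M for mock original libraries. Several libraries stood apart from their own group. Summed over the 96 members, the level was 1701, 567, 3224 and 5399 CPM in Zic4/Sp5 RNAi ectopic replicates 1 to 4. In the original tentacles of these animals it was 41.1, 19.7, 1141 and 1574 CPM, against 39.0, 34.9 and 25.4 CPM in mock original tentacles. Replicates 1 and 2 of the double RNAi original group thus lay near mock, and replicates 3 and 4 lay within the range of ectopic tentacles. Each original library nevertheless had a lower sum than the ectopic library of the same number and treatment. The sum was 531, 1941 and 1669.8 CPM in Sp5 RNAi ectopic replicates 1 to 3. Over the 25 libraries of mock and single RNAi original tentacles it ran from 9.94 to 83.6 CPM.

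**Figure D1:**
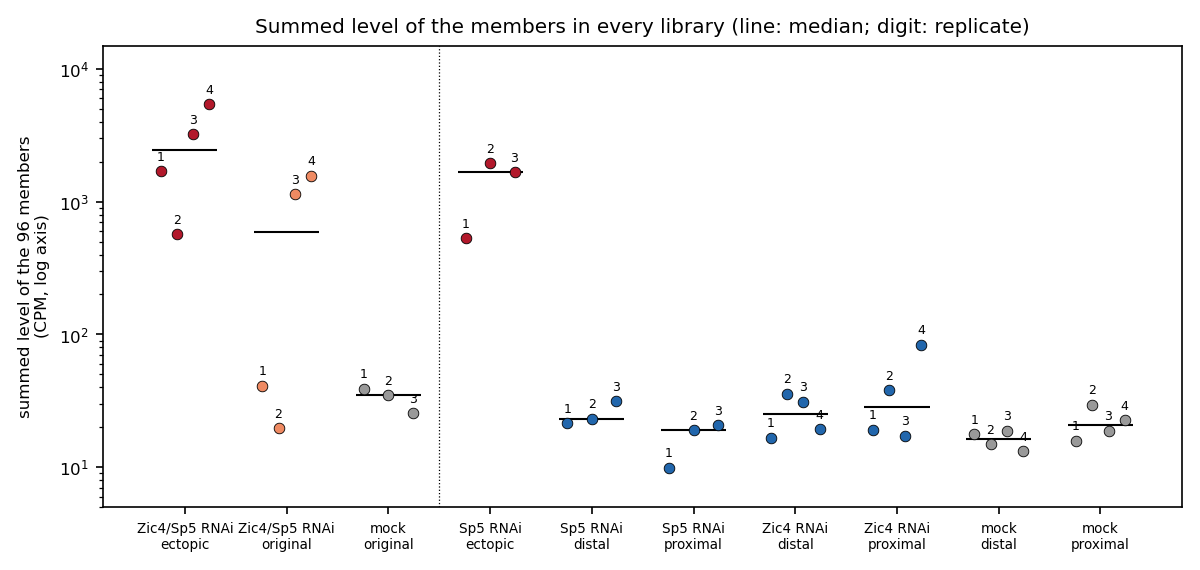
Summed level of the 96 members in each of 36 libraries, in CPM on a log axis; each point is a library with its replicate number, and each line is a group median. Ectopic libraries lie at 531 CPM or more, replicates 3 and 4 of Zic4/Sp5 RNAi original tentacles at 1141 and 1574 CPM, and all other libraries at 83.6 CPM or less.

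The 2 members with a name belong to different cell types. nb035 is one of a series of transcripts first found in nematoblasts. Its level was 31.4, 15.0, 88.3 and 111 CPM in Zic4/Sp5 RNAi ectopic tentacles, 3.68, 0.821, 7.57 and 54.7 CPM in the original tentacles of these animals, and 0.787, 1.28 and 0.0939 CPM in mock original tentacles. The ectopic libraries were all above mock, and replicate 4 of the double RNAi original group was far above the other 3 of its group. In Sp5 RNAi ectopic tentacles nb035 had 1.93, 29.5 and 34.3 CPM, so replicate 1 was below even the highest of the 25 mock and single RNAi original libraries, a Zic4 RNAi proximal library at 2.17 CPM.

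kazal4 belongs to the Kazal-type inhibitors of serine proteases, a family whose member kazal1 is made by Hydra gland cells. Its level was 13.4, 2.63, 19.7 and 11.6 CPM in Zic4/Sp5 RNAi ectopic tentacles and 8.82, 31.0 and 17.8 CPM in Sp5 RNAi ectopic tentacles. The original tentacles of Zic4/Sp5 RNAi animals had 2.42, 0, 0.947 and 1.96 CPM, and mock original tentacles had no count in any of 3 libraries. At their depth a count of 0 allows a level of up to 0.256 to 0.282 CPM (3 counts, counting error only). kazal4 was thus higher in all 7 ectopic libraries than in any of the 25 mock and single RNAi original libraries, whose highest value was 0.836 CPM. It was one of 6 members whose mean was lower in Zic4/Sp5 RNAi than in Sp5 RNAi ectopic tentacles.

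The 6 members with the highest mean in Sp5 RNAi ectopic tentacles spread from 42.3 to 119 CPM there. Gene 100206800 led with 79.3, 172 and 106 CPM in Sp5 RNAi ectopic tentacles, and it had 86.0, 11.05, 151 and 292 CPM in Zic4/Sp5 RNAi ectopic tentacles. None of the 25 mock and single RNAi original libraries had more than 0.865 CPM of it. LOC100198792 was the most even member in Sp5 RNAi ectopic tentacles, with 96.5, 105 and 97.4 CPM (mean 99.8 ± 4.95, SD, n = 3), whereas Zic4/Sp5 RNAi ectopic tentacles had 39.7, 3.94, 85.1 and 55.8 CPM. It had no count in mock original tentacles or in 21 of the 25 mock and single RNAi original libraries.

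LOC100203200 had 47.6, 99.8 and 38.2 CPM in Sp5 RNAi ectopic tentacles and 36.8, 18.5, 27.4 and 22.8 CPM in Zic4/Sp5 RNAi ectopic tentacles. Its level was even across the double RNAi ectopic libraries, in which most members varied widely. LOC105846846 reached the highest value of any member, 398 CPM in replicate 4 of Zic4/Sp5 RNAi ectopic tentacles, with 106, 13.0 and 113 CPM in replicates 1 to 3. Its Sp5 RNAi ectopic libraries had 24.1, 92.7 and 38.8 CPM, and its highest mock or single RNAi original library, a Zic4 RNAi distal one, had 4.47 CPM.

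LOC100192275 had 185, 15.1, 112 and 381 CPM in Zic4/Sp5 RNAi ectopic tentacles and 4.55, 85.1 and 51.6 CPM in Sp5 RNAi ectopic tentacles. Replicate 1 of the Sp5 RNAi ectopic group, where genes such as LOC100198792 were as high as in its partners, was low for this one. LOC100198884 had 20.1, 2.52, 73.4 and 103 CPM in Zic4/Sp5 RNAi ectopic tentacles and 24.4, 68.7 and 33.8 CPM in Sp5 RNAi ectopic tentacles. It was at 0 in all 3 mock original libraries, and its highest mock or single RNAi original value was 0.169 CPM.

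**Figure D2:**
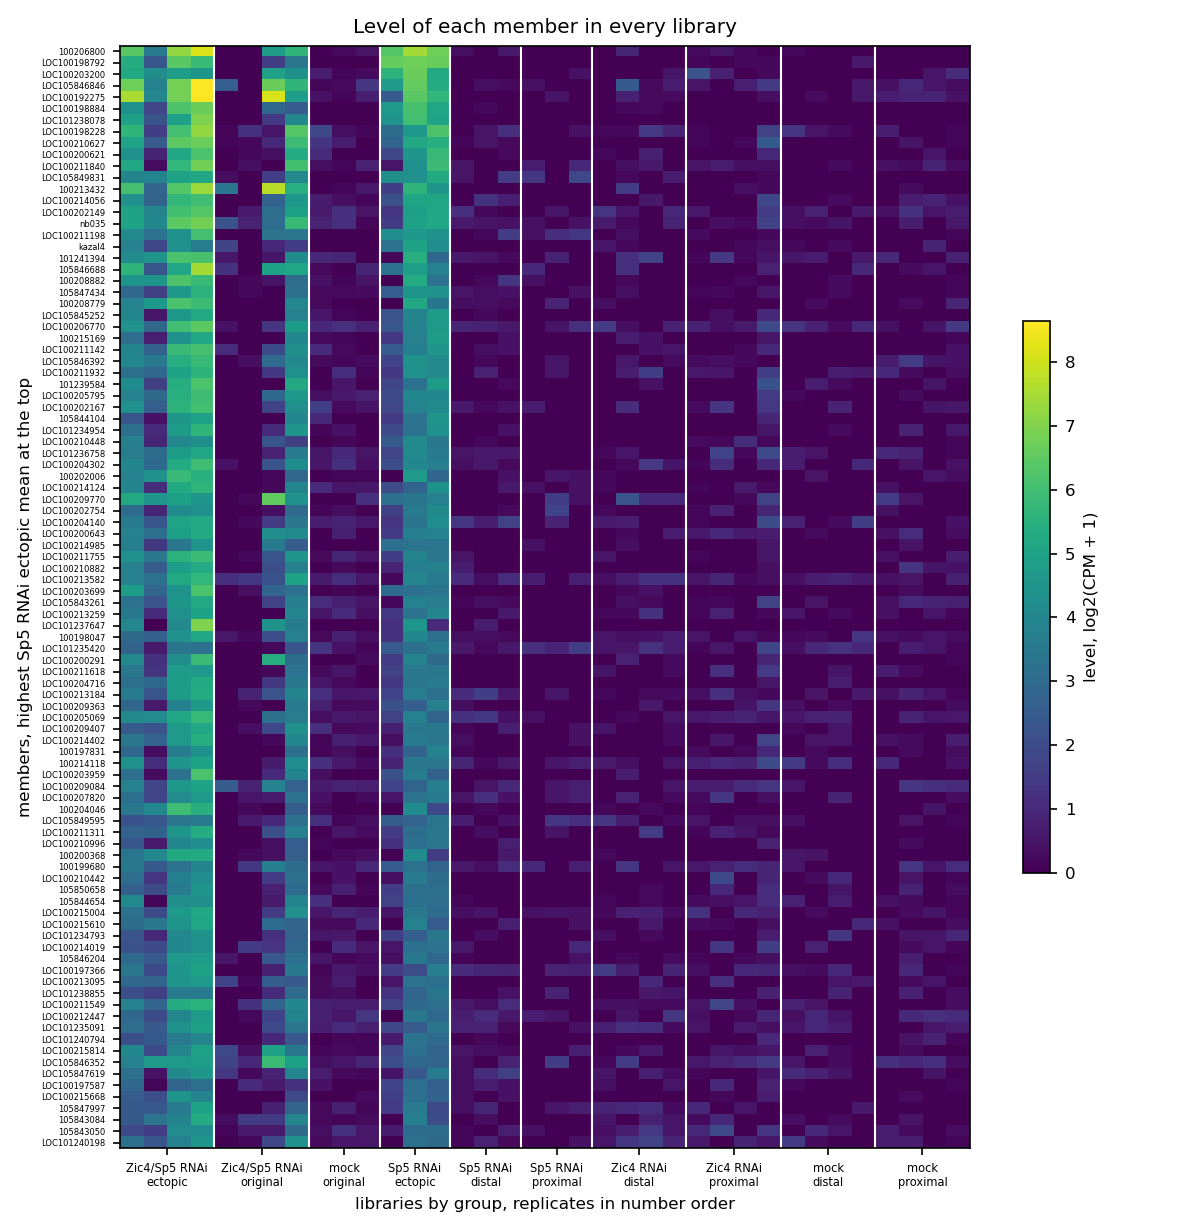
Level of each of the 96 members (down the page, ordered by Sp5 RNAi ectopic mean) in each of 36 libraries (across, by group and replicate number); colour is log2(CPM + 1). Columns of the ectopic groups and of replicates 3 and 4 of Zic4/Sp5 RNAi original tentacles are bright, with fewer bright genes in replicate 3, where 26 members reached 5 CPM, than in replicate 4, where 85 did.

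Across all members the mean in Zic4/Sp5 RNAi ectopic tentacles ran from 5.01 to 173 CPM with a median of 19.9 CPM, and in Sp5 RNAi ectopic tentacles from 5.03 to 119 CPM with a median of 8.26 CPM. The mean was higher in the double RNAi group for 90 members and lower for 6, and the ratio of the group means had a median of 2.31 (range 0.427 to 4.91). Over the 9828 genes of the table at 5 CPM or more in both groups the median ratio was 1.21. Among 8269 genes low in mock and single RNAi original tentacles, 230 (2.78%) reached 5 CPM in Zic4/Sp5 RNAi and 97 (1.17%) in Sp5 RNAi ectopic tentacles. The Sp5 RNAi limit was therefore the one that decided membership: the 96 genes are 99.0% of its 97 and 41.7% of the other group's 230. The groups belong to sets of libraries with separate mock controls, and the difference between them was not tested.

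The 5 members with the highest ratio were 100204046, LOC101237647, LOC100211549, LOC100205069 and LOC105846352, from 4.15 to 4.91. Gene 100204046 had 10.0, 15.2, 61.3 and 42.8 CPM in Zic4/Sp5 RNAi ectopic tentacles, against 0, 17.1 and 2.73 CPM in Sp5 RNAi ectopic tentacles. The groups overlapped, since Sp5 RNAi replicate 2 lay above double RNAi replicates 1 and 2. LOC101237647 had 15.1, 0, 16.6 and 125 CPM in Zic4/Sp5 RNAi and 1.24, 22.3 and 1.04 CPM in Sp5 RNAi ectopic tentacles, so that in each group a single library held most of the signal.

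LOC105846352 had 12.4, 23.96, 24.6 and 26.9 CPM in Zic4/Sp5 RNAi ectopic tentacles, against 3.17, 6.63 and 6.11 CPM in Sp5 RNAi ectopic tentacles. Its libraries did not overlap between the ectopic groups. LOC100211549 averaged 26.1 ± 19.3 CPM in Zic4/Sp5 RNAi (n = 4) and 5.54 ± 2.95 CPM in Sp5 RNAi ectopic tentacles (SD, n = 3). LOC100205069 averaged 30.6 ± 18.0 CPM in Zic4/Sp5 RNAi (n = 4) and 7.00 ± 5.46 CPM in Sp5 RNAi ectopic tentacles (SD, n = 3). Of these 2 genes, LOC100205069 did not overlap between the ectopic groups and LOC100211549 did.

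At the other end stood LOC100203200, LOC100198792, kazal4, LOC101235420 and LOC105849831, with ratios from 0.427 to 0.947. LOC100203200 and LOC100198792 had been among the most abundant members in Sp5 RNAi ectopic tentacles, and LOC100203200 was higher in each of those 3 libraries than in any double RNAi ectopic library. LOC105849831 had 14.6, 13.9, 30.2 and 35.4 CPM in Zic4/Sp5 RNAi and 18.3, 19.6 and 36.6 CPM in Sp5 RNAi ectopic tentacles, which overlapped throughout. LOC101235420 averaged 6.05 ± 3.99 CPM in Zic4/Sp5 RNAi (n = 4) and 7.72 ± 3.09 CPM in Sp5 RNAi ectopic tentacles (SD, n = 3).

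**Figure D3:**
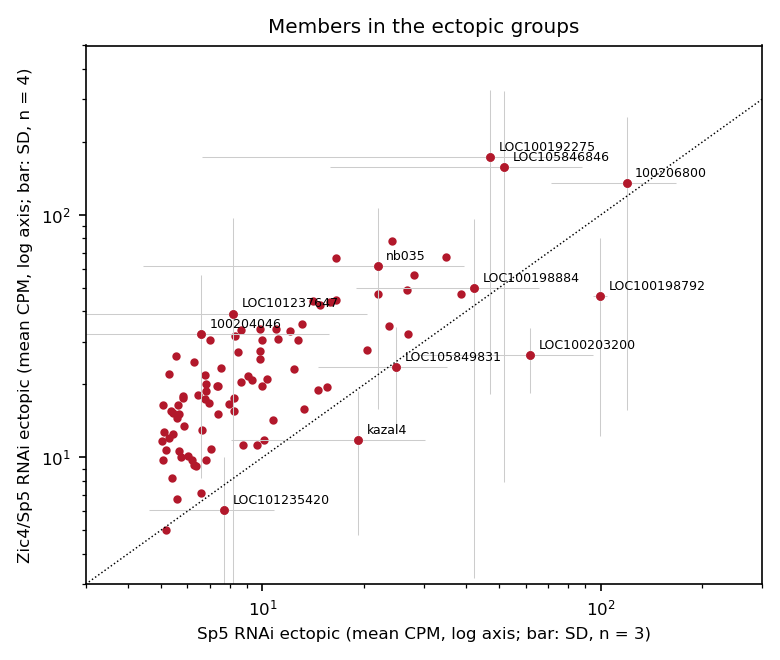
Mean level of each member in Zic4/Sp5 RNAi ectopic (vertical, n = 4) and Sp5 RNAi ectopic tentacles (horizontal, n = 3), in CPM on log axes; each point is a gene, the dotted line marks equal means, and grey bars give the SD for labelled genes and run off the axis where the SD nears or exceeds the mean. Most points (90 of 96) lie above the line, and LOC100203200, LOC100198792 and kazal4 lie clearly below it.

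Within the ectopic groups most members were low or high in the same libraries. The coefficient of variation of a member had a median of 77.9% in Zic4/Sp5 RNAi and 75.1% in Sp5 RNAi ectopic tentacles. Replicate 2 of the double RNAi group was the lowest of its group for 84 members, and replicate 4 the highest for 84. In the Sp5 RNAi group replicate 1 was the lowest for 94 members, and the highest was replicate 2 for 52 and replicate 3 for 44. The number of members at 5 CPM or more was 84, 39, 96 and 96 in the double RNAi and 15, 93 and 90 in the Sp5 RNAi ectopic libraries.

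The members did not all follow that order, and the following sets were formed after their values were seen. The 15 members that reached 5 CPM in Sp5 RNAi ectopic replicate 1 included gene 100206800, LOC100198792, LOC100203200 and kazal4. Their median there was 17.8 CPM, against 31.0 and 33.8 CPM in replicates 2 and 3. In contrast, 9 members had no count in that library, with medians of 17.1 and 5.85 CPM in the other two.

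Most of those 9 were not low in the low double RNAi library: their median was 15.2 CPM in Zic4/Sp5 RNAi ectopic replicate 2, where the median over all members was 3.94 CPM. The exceptions were LOC100212447 at 2.95 CPM and LOC101240198 at 3.83 CPM. Their medians in replicates 1, 3 and 4 of that group were 9.26, 36.6 and 38.5 CPM. The 15 members had medians of 30.6, 4.59, 30.2 and 72.1 CPM in double RNAi ectopic replicates 1 to 4. All 15 were lowest in replicate 2, whereas 7 of the 9 were lowest in replicate 1 and the exceptions in replicate 2.

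A related set is the 12 members that were higher in replicate 2 than in replicate 1 of Zic4/Sp5 RNAi ectopic tentacles. Of these, 7 had no RefSeq match, 7 had no count in Sp5 RNAi ectopic replicate 1, and 11 were highest in Sp5 RNAi ectopic replicate 2. Genes 100208882 and 100208779 show the pattern. Gene 100208779 had 13.1, 23.5, 73.0 and 60.1 CPM in Zic4/Sp5 RNAi ectopic tentacles and 0, 34.9 and 9.61 CPM in Sp5 RNAi ectopic tentacles. Gene 100208882 had 20.9, 21.4, 74.4 and 57.6 CPM and 0, 39.2 and 8.44 CPM in the same groups. Both were near 0 in replicates 1 to 3 of the double RNAi original group, at up to 0.406 CPM, and had 15.3 CPM (100208779) and 7.23 CPM (100208882) in replicate 4. How the authors treated reads shared by similar genes is not given in the sources used here, so genes with like profiles may share reads.

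In mock and single RNAi original tentacles no member reached 5 CPM in any of 25 libraries. The highest single value was 4.49 CPM, for LOC100210627 in Zic4 RNAi proximal replicate 4. That library had the highest member sum of the 25 (83.6 CPM), against 19.2, 38.0 and 17.3 CPM in the other Zic4 RNAi proximal libraries. In it 32 members were at 1 CPM or more, against 2, 17 and 4 in replicates 1 to 3, and 25 members had their highest value of the 25 libraries there. The rule's limits on group means do not show such a library. LOC101238078 had no count in any of the 25, although it had 30.0, 3.72, 29.5 and 125 CPM in Zic4/Sp5 RNAi and 20.7, 63.5 and 31.8 CPM in Sp5 RNAi ectopic tentacles.

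The original tentacles of Zic4/Sp5 RNAi animals are the libraries that the rule did not use. The number of members at 5 CPM or more was 1, 0, 26 and 85 of 96 in replicates 1 to 4, against 0 in each of 3 mock original libraries. Among all 8654 genes under 1 CPM in each mock group, 0.636%, 0.948%, 3.03% and 3.85% reached 5 CPM in the same 4 libraries. The number of members with no count was 74, 61, 12 and 0 in Zic4/Sp5 RNAi original replicates 1 to 4 and 25, 21 and 35 in mock original libraries. Replicates 1 and 2 thus held more members at 0 than mock did, at totals of 8.69 and 7.31 M counts against at least 10.65 M in mock.

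The 5 members with the highest mean in Zic4/Sp5 RNAi original tentacles owed it mainly to replicate 3. LOC100192275 had 0, 0, 280.1 and 28.0 CPM there, against 0.350, 0.0852 and 0.657 CPM in mock original tentacles. Gene 100213432 had 9.56, 0, 207 and 43.1 CPM, against 0, 0.0852 and 0.469 CPM in mock. For both genes replicate 2 had no count while replicate 3 exceeded 200 CPM.

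LOC105846846 had 4.95, 0, 104 and 49.5 CPM in Zic4/Sp5 RNAi original tentacles, against 0.0875, 0.170 and 1.60 CPM in mock. LOC100209770 had 0, 0.137, 91.6 and 20.3 CPM, against 0, 0 and 1.22 CPM in mock. LOC105846352 had 2.42, 0.957, 58.7 and 28.5 CPM, against 0.262, 0.426 and 0.845 CPM in mock. Of these 5 genes, LOC105846352 alone had all 4 double RNAi libraries above all 3 mock libraries in CPM. The margin was small for double RNAi replicate 2, with 7 counts against 9 counts in the deeper mock replicate 3.

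Replicates 3 and 4 differed in which members they held. The 5 highest members made up 64.9% of the members' sum in replicate 3 and 19.6% in replicate 4, and the lists of 5 shared no gene. Replicate 3 was higher than replicate 4 for 17 members, among them LOC100203200, LOC100198884, LOC101237647 and the 5 above. LOC100198228 is the reverse case, with 0.406 CPM in replicate 3 and 79.3 CPM in replicate 4, and LOC100211840 had no count in replicate 3 and 64.7 CPM in replicate 4. Set beside the ectopic tentacles of the same treatment, replicate 3 was at or above the lowest of 4 ectopic libraries for 25 members and replicate 4 for 86. The libraries' order by member sum, lowest to highest, was replicate 2, 1, 3 and 4 in both Zic4/Sp5 RNAi groups, and the labels do not say whether equal numbers share animals. Over all genes tested, the deviations from the group means correlated between equal numbers of these groups, at 0.220, 0.383, 0.266 and 0.346 for replicates 1 to 4. Unequal numbers were not compared, so these values have no baseline. The edgeR fit below took the libraries of both groups as independent. No contrast between the 2 groups was tested.

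**Figure D4:**
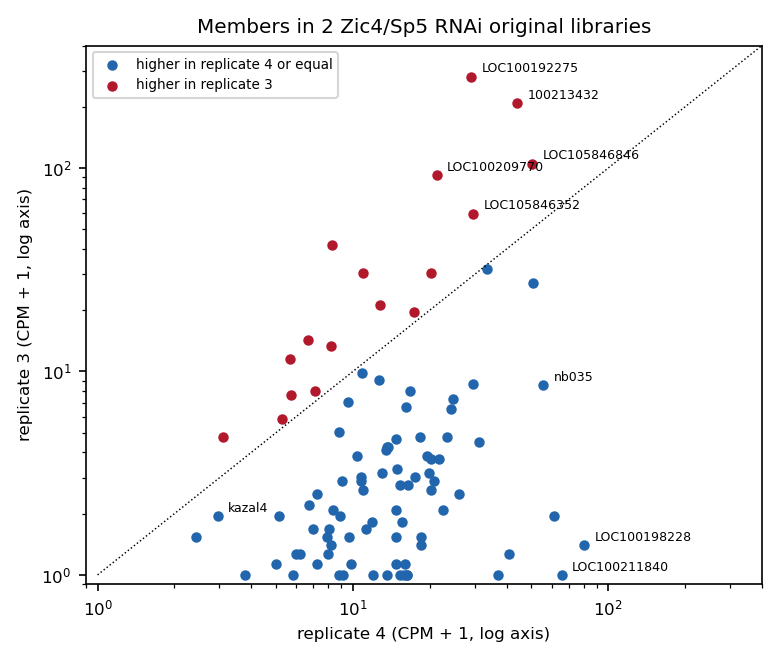
Level of each member in Zic4/Sp5 RNAi original replicate 3 (vertical) and replicate 4 (horizontal), CPM + 1 on log axes; each point is a gene and the dotted line marks equal levels. The 17 genes above the line include LOC100192275 and 100213432, and LOC100198228 and LOC100211840 lie far below it.

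In the test of Zic4/Sp5 RNAi original against mock original tentacles (edgeR quasi-likelihood, adjusted over 14826 genes), none of the 96 members was called, while 4.39% of all genes tested were called in either direction and 2.36% were called higher. Among tested genes under 1 CPM in every mock group, 79 of 1106 (7.14%) were called higher. At an unadjusted p under 0.05 in edgeR, 48 of 96 members were higher, against 12.7% of all genes and 41.6% of the tested genes under 1 CPM in every mock group. DESeq2 called 29 members higher, against 8.14% of all genes and 28.8% of those low in mock. Limma voom called 0 members, with 0 at an unadjusted p under 0.05, against 0.85% of all genes and 0.904% of those low in mock. The rule kept the mock arm low, so no excess over all genes is read from these counts, and the share by DESeq2 was near that of other genes low in mock. The fitted log2 fold change was above 0 for all 96, with a median of 3.65 against 0.04 over all genes tested. This direction is partly given by the rule, which kept the mock arm low. Without replicate 4 it was below 0 for 38 of 96 members, and under voom for 6. All 96 entered the fit, but only 30 passed the filter on low counts when the ectopic libraries were left out of it. Of those 30, 12 were higher at an unadjusted p under 0.05 in edgeR. In the same fit 1434 of 14053 genes were higher at that limit, and 208 of the 475 tested genes under 1 CPM in every mock group.

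The members nearest to a call were LOC100215814 and LOC105846352, named after their values were seen in the case of the first. LOC100215814 had 2.76, 0.274, 29.6 and 9.94 CPM in Zic4/Sp5 RNAi original tentacles, against 0.0875, 0.170 and 0.0939 CPM in mock. Its value in double RNAi replicate 2 rested on 2 counts, against 1, 2 and 1 counts in mock, so that library cannot be told from mock. Its log2 fold change was 6.24 (SE 1.56), with an adjusted p of 0.0508 (edgeR). For LOC105846352 it was 5.32 (SE 1.34), with an adjusted p of 0.0519 (edgeR). LOC100192275, the member with the highest mean, had a log2 fold change of 7.59 (SE 2.61) and an adjusted p of 0.121 (edgeR); 2 of its 4 libraries were at 0. nb035 had 4.35 (SE 1.42) with an adjusted p of 0.107 (edgeR).

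For kazal4, at 0 counts in mock, the mean of Zic4/Sp5 RNAi original tentacles was at least 4.99-fold higher than a floor of 3 counts per library, and its adjusted p was 0.0764 (edgeR). The same bound was 29.9-fold for LOC101237647, 17.6-fold for LOC105849831, 11.02-fold for LOC100198792 and 10.7-fold for LOC100198884, none of which was called. Except for kazal4, these bounds are on a mean carried by replicates 3 and 4. In replicates 1 and 2 LOC105849831 had 2 and 0 counts, and the other genes except kazal4 had 0, as in mock. kazal4 itself had 21, 0, 7 and 26 counts in replicates 1 to 4. Leaving out Zic4/Sp5 RNAi original replicate 1 raised the number of members called to 8, against 4.87% of all genes and 19.5% of those low in mock. Leaving out replicate 2 raised it to 10, against 5.81% of all genes and 17.4% of those low in mock. In both fits the members' share was below that of genes low in mock. Leaving out any other library of the comparison gave 0 by edgeR.

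Of the marker lists for other cell types, that of nematoblasts and nematocytes broadly followed the members across the ectopic and Zic4/Sp5 RNAi original libraries. The list of nematoblast and nematocyte genes matched 8 names, of which nb035 is a member. The other 7 (nb001, nb012, nb039b, nb-042, nowa, LOC100212904 and LOC100209638, the last 3 coding for proteins of the stinging capsule or relatives of nematogalectin) summed to 2256, 593, 6162 and 7273 CPM in Zic4/Sp5 RNAi ectopic tentacles. In the original tentacles of these animals the sum was 44.7, 37.6, 307 and 3145 CPM, against 98.5, 78.2 and 30.0 CPM in mock original tentacles. It was 498, 4428 and 6413 CPM in Sp5 RNAi ectopic tentacles. Most of the sum in every ectopic library was nb001. It alone had 1475, 391, 4376 and 4671 CPM in Zic4/Sp5 RNAi and 399, 3457 and 4838 CPM in Sp5 RNAi ectopic tentacles. Each of the 7 was lowest in replicate 2 of the Zic4/Sp5 RNAi and in replicate 1 of the Sp5 RNAi ectopic group. Within these groups the libraries low for the members were thus low for these markers too. Replicate 3 of the double RNAi original group was the exception, with 1141 CPM of members and 307 CPM of markers, where replicate 4 had 1574 and 3145 CPM.

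Among the single RNAi original groups, the Zic4 RNAi proximal libraries had marker sums of 25.1, 361, 23.9 and 364 CPM. Replicates 2 and 4, high for the markers, were also the ones with the most members at 1 CPM. Most of the marker sum in both was nb001, at 313 and 301 CPM. None of the 8 genes of the list was called between Zic4/Sp5 RNAi original and mock original tentacles by edgeR, at adjusted p from 0.107 to 0.316, and 5 of the 8 had an unadjusted p under 0.05. DESeq2 called 3 of the 8 higher, and voom called 0. In bulk tissue, as for every level given here, more cells of a type and more RNA per cell cannot be told apart.

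**Figure D5:**
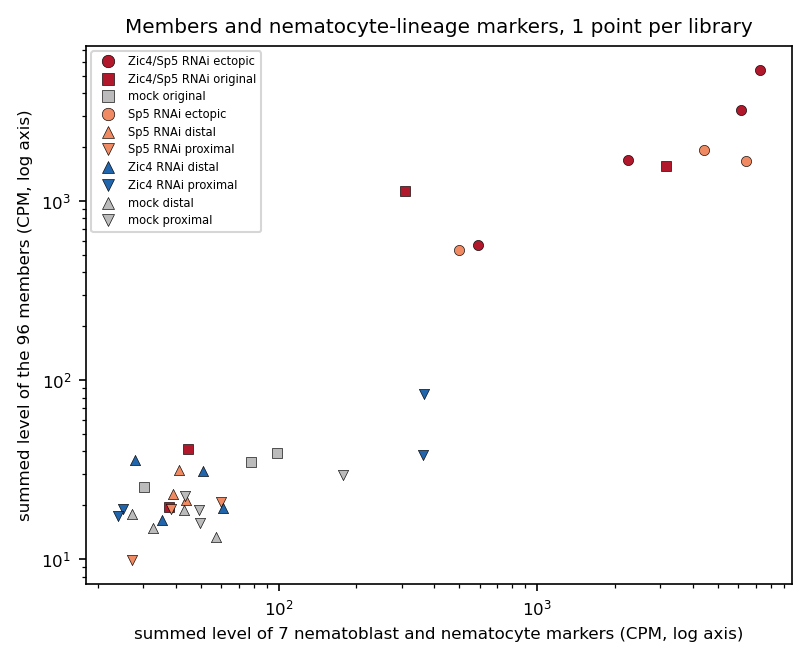
Summed level of the 96 members (vertical) against the summed level of 7 nematoblast and nematocyte markers that are not members (horizontal), in CPM on log axes; each point is a library, with shape for the tissue and colour for the treatment. Ectopic libraries lie at upper right, and replicate 3 of Zic4/Sp5 RNAi original tentacles (1141 CPM of members, 307 CPM of markers) lies above the other libraries of similar marker level.

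The gland cell list matched kazal1 beside the member kazal4. kazal1 had 625, 168, 660 and 642 CPM in Zic4/Sp5 RNAi ectopic tentacles, 43.5, 1.91, 812 and 278 CPM in the original tentacles of these animals, and 1.84, 5.80 and 3.75 CPM in mock original tentacles. In Sp5 RNAi ectopic tentacles it had 428, 778 and 626 CPM. Unlike the nematocyte genes it was therefore high in Sp5 RNAi ectopic replicate 1, and in Zic4/Sp5 RNAi original replicate 3 it was above every ectopic library. Unlike the members it was also present in mock proximal parts, at 9.56 to 170 CPM. Its adjusted p between Zic4/Sp5 RNAi original and mock original tentacles was 0.0595 (edgeR), so neither gene of the list was called; DESeq2 called both higher and voom neither.

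Genes of the head organizer, the signalling centre at the mouth, also differed between these libraries. The 12 matched names summed to 230, 241, 502 and 360 CPM in Zic4/Sp5 RNAi ectopic tentacles, to 436, 220, 751 and 538 CPM in original tentacles of these animals, and to 116, 187 and 142 CPM in mock original tentacles. Of these sums, hyfzd5/8 alone gave 277, 193, 151 and 160 CPM in Zic4/Sp5 RNAi original and 83.3, 140 and 114 CPM in mock original tentacles. The 12 also summed to 273 to 285 CPM in Sp5 RNAi distal and 215 to 380 CPM in Sp5 RNAi proximal parts, where the members were near absent. LOC100209110 (Bra1), a Brachyury gene of the mouth region, had 7.71, 0, 192 and 82.4 CPM in Zic4/Sp5 RNAi original tentacles, against 0, 0.0852 and 0.188 CPM in mock. It and hywnt9/10c, a Wnt ligand, were the 2 of 11 tested genes of the list called higher, with adjusted p of 0.0458 and 0.0164 (edgeR). DESeq2 called 8 genes of the list higher, and voom called 0. Replicates 3 and 4, high for the members, were the highest for Bra1 too. In Sp5 RNAi ectopic tentacles, where the members were high, the 12 genes summed to 83.3, 109.8 and 154 CPM. Bra1 had 0.551, 0.474 and 8.83 CPM there and hywnt1 at most 0.158 CPM, while LOC100204831 (Bra2), the other Brachyury gene, had 9.93, 10.9 and 16.2 CPM. Bra2 had 18.8, 1.505, 90.2 and 66.7 CPM in Zic4/Sp5 RNAi original tentacles, against 3.94, 0.938 and 5.07 CPM in mock.

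Battery cell genes, with annexin 12 as the most abundant, summed to 1588 to 2534 CPM in Zic4/Sp5 RNAi ectopic tentacles. Their sum was 2131 to 2665 CPM in Zic4/Sp5 RNAi original and 3040.1 to 3134 CPM in mock original tentacles. In Sp5 RNAi ectopic tentacles it was 3045 to 3481 CPM. The mock groups of that set had 2830 to 7579 CPM in distal and 5169 to 9502 CPM in proximal parts. LOC100201806 (Alx), an aristaless-related homeobox gene of the tentacle base on that list, had 23.7, 18.2, 9.56 and 21.7 CPM in Zic4/Sp5 RNAi ectopic tentacles and 5.24, 6.32 and 5.98 CPM in Sp5 RNAi ectopic tentacles. Its level was 64.5, 85.1, 70.6 and 20.0 CPM in Zic4/Sp5 RNAi original tentacles, against 96.5, 131 and 93.3 CPM in mock. Replicate 4, the one with most members, was also the lowest of its group for Alx. The stem cell and germline genes piwil1 and Hyli summed to 303 to 461 CPM in Zic4/Sp5 RNAi ectopic and 439 to 475 CPM in Sp5 RNAi ectopic tentacles. Their sum was 279 to 350 CPM in Zic4/Sp5 RNAi original and 180 to 212 CPM in mock original tentacles. Mock distal parts had 167 to 426 CPM, mock proximal parts 161 to 380 CPM and Zic4 RNAi proximal parts 408 to 498 CPM. High sums were thus not particular to libraries that held the members. CnNK-2, a homeobox gene of the foot, had 0.656 to 4.67 CPM in Zic4/Sp5 RNAi ectopic tentacles, against at most 0.0852 CPM in mock original tentacles. In Sp5 RNAi ectopic tentacles it had 1.79 to 2.86 CPM, against at most 0.749 CPM in mock distal and 0.114 CPM in mock proximal parts. Sp5 RNAi proximal replicate 2 had 2.33 CPM, within the Sp5 RNAi ectopic range.

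Of the 4 extracellular matrix genes, LOC100213185 (HMP1), a metalloprotease of the astacin family, followed the members in part. It had 81.2, 25.1, 27.9 and 75.7 CPM in Zic4/Sp5 RNAi ectopic tentacles, 8.75, 0, 225 and 29.0 CPM in the original tentacles of these animals, and 0.175, 0.170 and 2.44 CPM in mock original tentacles. In Sp5 RNAi ectopic tentacles it had 0.689, 31.0 and 41.6 CPM, low in replicate 1 as most members were. Its log2 fold change between Zic4/Sp5 RNAi original and mock original tentacles was 6.03 (SE 1.93), with an adjusted p of 0.102 (edgeR). edgeR called none of the 7 battery, stem cell and foot genes, nor any of the 4 matrix genes, between Zic4/Sp5 RNAi original and mock original tentacles. At an unadjusted p under 0.05 there were 4 of the 7 and 1 of the 4 by edgeR. DESeq2 called 1 of the stem cell and 1 of the matrix genes higher, and voom called none. The part of any of these cell types in the members' levels was not tested.

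The limits of the rule cut through a continuous range of levels. For the Sp5 RNAi ectopic limit LOC101240198 lay just inside at 5.03 CPM and LOC100208865 just outside at 4.95 CPM, and for the mock original limit LOC100206770 lay inside at 0.997 CPM and LOC100203332 outside at 1.01 CPM. LOC100206770 had 20.1, 6.24, 62.6 and 87.7 CPM in Zic4/Sp5 RNAi and 4.14, 13.7 and 24.4 CPM in Sp5 RNAi ectopic tentacles. LOC100197587 was the lowest member in Zic4/Sp5 RNAi ectopic tentacles at 5.01 CPM, and the gene just outside that limit, 105846067, had 1.88 CPM.

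Similar margins held for the other limits. LOC101235420 lay inside the mock distal limit at 0.895 CPM and LOC100211434 outside it at 1.09 CPM, while LOC100209084 lay inside the mock proximal limit at 0.955 CPM and LOC100209635 outside it at 1.03 CPM. Inside the single RNAi limits lay LOC100204140 at 1.46 CPM in Sp5 RNAi distal, LOC105849831 at 1.40 CPM in Sp5 RNAi proximal, LOC100209770 at 1.40 CPM in Zic4 RNAi distal and gene 100214118 at 1.38 CPM in Zic4 RNAi proximal parts. Just outside lay LOC105851038 at 1.62 CPM in Sp5 RNAi distal, LOC100215158 at 1.66 CPM in Sp5 RNAi proximal and gene 101239767 at 1.52 CPM in Zic4 RNAi proximal parts, and no gene failed on the Zic4 RNAi distal limit alone. A total of 196 genes met the mock and ectopic limits whatever their level in single RNAi original tentacles.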

How the data were processed

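The authors deposited whole-number read counts per gene for 36 libraries, used as deposited. Per the submitters' processing notes STAR 2.5.0 and bcl2fastq were used; the counting program, its strand setting and the genome build are not given in the sources used here. Per the labels' protocols, pooled tissue was amplified by SmartSeq2 and cut with Tn5, without molecular identifiers named, so floors of 3 counts cover counting error only. CPM used column totals. Every column matched a sample by name. Names came from the RefSeq table of assembly HydraT2T_AEP. Gene descriptions, proteins and promoters were not analysed, because no descriptions or sequences were at hand for Hydra. Length and base composition were not analysed either, with under 80% of members matched. The Zic4 and Sp5 transcripts were also left out, so knockdown was not measured.

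Zic4/Sp5 RNAi original and mock original tentacles were compared with edgeR 4.0.16 in R 4.3.3 (filterByExpr, TMM, robust quasi-likelihood F test, group as the only factor, 11 whole-tentacle libraries), called at a Benjamini-Hochberg adjusted p under 0.05. Standard errors came from the F statistic. The procedure was tested on simulated data. Alternatives were DESeq2 1.42.0, limma 3.58.1 voom, DESeq2 size factors, no filter, the 2 groups alone, a replicate block, each library left out and other CPM scalings for membership. All 48 within-group pairs of libraries differed by more than sampling noise. The labels do not say that replicates come from separate cultures, so p-values measure the spread between these libraries, which may be technical.

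The members and lists were chosen with earlier results of these data known. Named were members on a marker list or with a name, the 6 highest in Sp5 RNAi ectopic tentacles, the 5 highest and 5 lowest ratios between ectopic groups, the 5 highest means in Zic4/Sp5 RNAi original tentacles, and genes nearest each limit; others are said to be chosen on their values or are extremes. Lists for neurons, cell division, cilia, mucous cells and transcription factor families had no matched name.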

Additional observations from a re-analysis of the deposited data

Results flagged for a closer look

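In 7 of 48 sets of 4 libraries looked at, the highest library lay far from the other 3, by the ratio of the gap to the range at the 95% level. That level holds for independent values with a normal spread. The sets here share libraries, so the 7 are not compared with a number given by chance. In 5 of them the library was Zic4/Sp5 RNAi original replicate 4: nb035 (54.7 CPM), LOC105849831 (16.5 CPM), LOC100206770 (25.1 CPM), 100214118 (17.5 CPM) and LOC101240198 (20.8 CPM). LOC100192275 stood out in replicate 3 of that group (280.1 CPM), and LOC101237647 in replicate 4 of Zic4/Sp5 RNAi ectopic tentacles (125 CPM). In the other libraries of that group LOC100206770 had at most 1.49 CPM, 100214118 at most 0.541 CPM, LOC101240198 at most 2.71 CPM and LOC105849831 at most 2.03 CPM. The cause was not tested.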

How the results depend on the processing

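The comparison of Zic4/Sp5 RNAi original with mock original tentacles called 651 genes. It called 1876 with DESeq2 (1207 higher and 669 lower, against 350 and 301 in edgeR), 75 with the 2 groups alone and 56 to 1467 with 1 library left out. DESeq2 size factors, voom and no filter gave 614, 538 (126 higher and 412 lower) and 521. The count without mock original replicate 1, 2 or 3 was 56, 143 or 103, and without Zic4/Sp5 RNAi original replicate 1, 2, 3 or 4 it was 1162, 1467, 287 or 409. Members called were 29 with DESeq2, 0 to 10 with 1 library left out and 0 under each other alternative.

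Between equal replicate numbers of the 2 groups the deviations from the group means correlated at 0.016, -0.078 and 0.080, and unequal numbers were not compared. With a replicate block 335 genes and 0 members were called, and 19 of 96 members had a log2 fold change below 0. Among 23 named members, 10 of 285 alternative values changed sign. With the replicate block they were LOC101235420 (-1.79), LOC100206770 (-0.49), 100214118 (-0.70) and LOC100204140 (-0.066). Without Zic4/Sp5 RNAi original replicate 4 they were LOC101235420 (-3.68), LOC100206770 (-0.83), 100214118 (-2.01), 100204046 (-0.47) and LOC100204140 (-0.020), and under voom LOC101235420 (-0.69). With 1 library left out the highest values of these 5, in the same order, were 2.12, 3.01, 3.52, 6.72 and 2.54. Of the rest, 251 kept direction and call, and 24 became calls. The causes were not tested.

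Membership counted 94 genes with TMM-scaled CPM (85 shared with the 96), 98 with DESeq2 size factors (84 shared) and 114 with group medians (84 shared). With 1 library left out it was 69 to 124: 124 without Sp5 RNAi ectopic replicate 1, and 69 without its replicate 2, which lost 30 members. Depth limits the low groups, where 3 counts are up to 1.47 CPM.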

Other observations

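Of the 73 members with a place in the RefSeq table, none had another member as its nearest gene. In 2 pairs at most 4 genes lay between members: kazal4 and LOC100198792 (2 genes between), and LOC100214019 and LOC100215004 (1 gene between). kazal4 and LOC100198792 were both lower in mean in Zic4/Sp5 RNAi than in Sp5 RNAi ectopic tentacles. The build of the count table is not given in the sources used here, so distances were not computed.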
